A study of Mus musculus with 8 samples.

Results

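The 35 genes described here carry glucose through glycolysis or are induced when oxygen is low. They were chosen by symbol from 55450 rows of a gene count table, where 36 rows carry these symbols because Aldoa has 2. They comprise 13 glycolytic enzymes, 5 transporters and regulators of glycolytic flux, and 17 targets of the hypoxia-inducible factor (HIF) outside glycolysis. The counts come from 8 flank tumours of MOC1, an oral squamous carcinoma line from the mouse, grown in C57BL/6 hosts. Of these, 5 tumours received an antisense oligonucleotide (ASO) against Smyd3, a lysine methyltransferase, and 3 received a control ASO. Every host was also given anti-PD-1, which blocks an immune checkpoint receptor, over 32 days. Within the Smyd3 ASO arm the labels mark 2 tumours as responders (numbered 1 and 3) and 2 as non-responders, called 1 and 2 here in the order of the labels, while the remaining tumour (number 2) has no response mark. Response is an outcome and was not assigned. Age and sex are not given in the sources used here, and the labels do not say that each library came from its own animal, so p-values measure the spread between these samples, which may in part be technical.

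HIF is a pair of transcription factor subunits, of which the alpha subunit is hydroxylated by oxygen-dependent enzymes and then destroyed while oxygen is present. When oxygen falls, the alpha subunit persists and binds short DNA elements near its target genes. Its targets raise glucose uptake, glycolysis and lactate export, hold pyruvate back from the mitochondria, call in blood vessels and modify collagen. In solid tumours these transcripts are known to be high in poorly perfused regions.

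Each library held between 22103853.1 and 27258700.1 expected counts, and levels are given as CPM, a count scaled to library size. By these totals 1 CPM stood for 22.1 to 27.3 reads, before a further scaling of the libraries by factors of 0.9638 to 1.0404. Smyd3 itself was at 8.68 and 4.38 CPM in the responders, 4.58 CPM in the unmarked tumour and 9.26 and 4.88 CPM in the non-responders, against 10.7, 11.9 and 10.6 CPM in the control ASO tumours. The arms did not overlap, but the difference did not pass the test over all genes (log2 fold change −0.80, SE 0.29, FDR 0.246). The epithelial identity of the tumours was plain, with Krt5, a basal keratin, at 6771 to 13925 CPM in Smyd3 ASO tumours and 9644 to 14496 CPM in controls. Bulk tissue mixes tumour and host cells, so that fewer cells of a type and less RNA per cell cannot be told apart.

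Promoters are shown first, because the HIF core is the element through which such genes are known to respond to low oxygen. Of the 35 genes, 31 had a promoter in the RefSeq table for GRCm38.p6. The 250 bases before each transcript start were searched on both strands for ACGTG, the most common form of the HIF core, and also for the variant of it that reads GCGTG. Where ACGTG lies on both strands at once, as part of a palindrome, it counts as 2 matches. At least 1 match was found for 28 of the 31 genes (90.3%), against 57.8% of the 12132 tested genes with a promoter and 41.5% of all 27025 genes of the table. The form ACGTG was found in 58.1% of the 31 genes, against 23.7% of the tested genes. The variant GCGTG was found in 67.7% of them, against 46.5% of the tested genes. The 31 genes had a mean of 1.39 starts in the table and the tested genes 1.27, and each start adds bases in which a match can occur. The genes without a match were Gpi1, Mif and Tpi1. A match is a description of letters and not a bound site. The 150 bases before the start are printed below, with matches in capitals. Shown are the 3 genes with the smallest p between the arms (Egln1, Car9 and Bnip3), the collagen hydroxylase P4ha2 and the glucose transporter Slc2a1. Also shown are 2 glycolytic enzymes that stand at opposite ends, Ldha with many matches and Gpi1 with none. Where a gene has more than 1 start, the start with the most matches is printed. Ldha has 2 starts, with 5 of its 6 matches before the printed one, while Gpi1 has 1 start. GENCODE M21 places the start of Car9, Egln1 and Slc2a1, and of a non-coding transcript of Bnip3, upstream of the RefSeq start and inside the stretch shown. It places the starts of the P4ha2 and Ldha genes further upstream, so that their printed stretches lie inside the annotated genes. An exon of the long non-coding RNA Gm12762 overlaps the stretch of Gpi1.
Car9 (GRCm38.p6, chr4:43506876-43507025, plus strand): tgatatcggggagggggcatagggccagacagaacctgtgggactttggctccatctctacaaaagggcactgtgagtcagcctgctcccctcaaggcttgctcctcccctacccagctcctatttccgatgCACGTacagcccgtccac
Egln1 (GRCm38.p6, chr8:124949255-124949404, minus strand): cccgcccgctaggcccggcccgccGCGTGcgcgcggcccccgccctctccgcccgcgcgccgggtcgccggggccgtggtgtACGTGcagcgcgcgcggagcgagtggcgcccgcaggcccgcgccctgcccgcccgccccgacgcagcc
Bnip3 (GRCm38.p6, chr7:138909507-138909656, minus strand): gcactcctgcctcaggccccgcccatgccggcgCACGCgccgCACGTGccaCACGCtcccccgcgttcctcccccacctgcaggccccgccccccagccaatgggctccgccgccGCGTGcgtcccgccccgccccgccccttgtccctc
P4ha2 (GRCm38.p6, chr11:54100774-54100923, plus strand): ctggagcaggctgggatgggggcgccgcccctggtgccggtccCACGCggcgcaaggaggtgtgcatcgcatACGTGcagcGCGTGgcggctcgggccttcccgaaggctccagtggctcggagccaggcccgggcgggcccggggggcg
Slc2a1 (GRCm38.p6, chr4:119108595-119108744, plus strand): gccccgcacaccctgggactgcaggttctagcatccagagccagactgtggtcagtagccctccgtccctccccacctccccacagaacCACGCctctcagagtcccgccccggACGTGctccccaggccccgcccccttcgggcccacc
Ldha (GRCm38.p6, chr7:46845654-46845803, plus strand): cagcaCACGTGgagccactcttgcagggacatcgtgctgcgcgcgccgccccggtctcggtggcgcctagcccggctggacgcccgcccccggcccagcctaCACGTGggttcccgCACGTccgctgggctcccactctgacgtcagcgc
Gpi1 (GRCm38.p6, chr7:34230337-34230486, minus strand): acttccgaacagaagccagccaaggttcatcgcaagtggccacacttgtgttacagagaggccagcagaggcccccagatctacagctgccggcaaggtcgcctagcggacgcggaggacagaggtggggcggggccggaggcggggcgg
In Car9 the single match lies just before the RefSeq start but after the GENCODE start, whereas Bnip3 and Ldha each hold a cluster that includes the palindrome.

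The main comparison asked how these transcripts differ between Smyd3 ASO and control ASO under the same antibody. All 35 genes had log2 fold changes below 0 in the Smyd3 ASO tumours, with a median of −0.57, while the median of all 16911 tested genes was 0.01 and 48.2% of them lay below 0. The HIF targets outside glycolysis lay lowest, with a median of −0.86, the enzymes had a median of −0.41 and the transporters and regulators −0.30. No gene passed FDR 0.05 in the edgeR test, among the 35 or among all genes (0% called, lowest FDR 0.0656 over all genes and 0.0758 among the 35). An unadjusted p under 0.05 in the lower direction was reached by 23 of the 35, where 7% of all genes reached it. DESeq2, run on the same counts, called 9 of the 35 and 1053 of all genes. Without non-responder 1 edgeR called 4 of the 35 (Bnip3, Car9, Egln1 and Slc2a1) and 259 of all genes, and without control 1 it called 5 of all genes and none of the 35. In 10 of the 35, the 5 Smyd3 ASO tumours all lay below the lowest control, against 5.14% of all genes. These were Gpi1 and Pfkp among the enzymes, Pdk1 among the regulators, and Car9, Bnip3, Vegfa, Ndrg1, Egln1, Kdm3a and P4ha2 among the HIF targets.

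**Figure D1:**
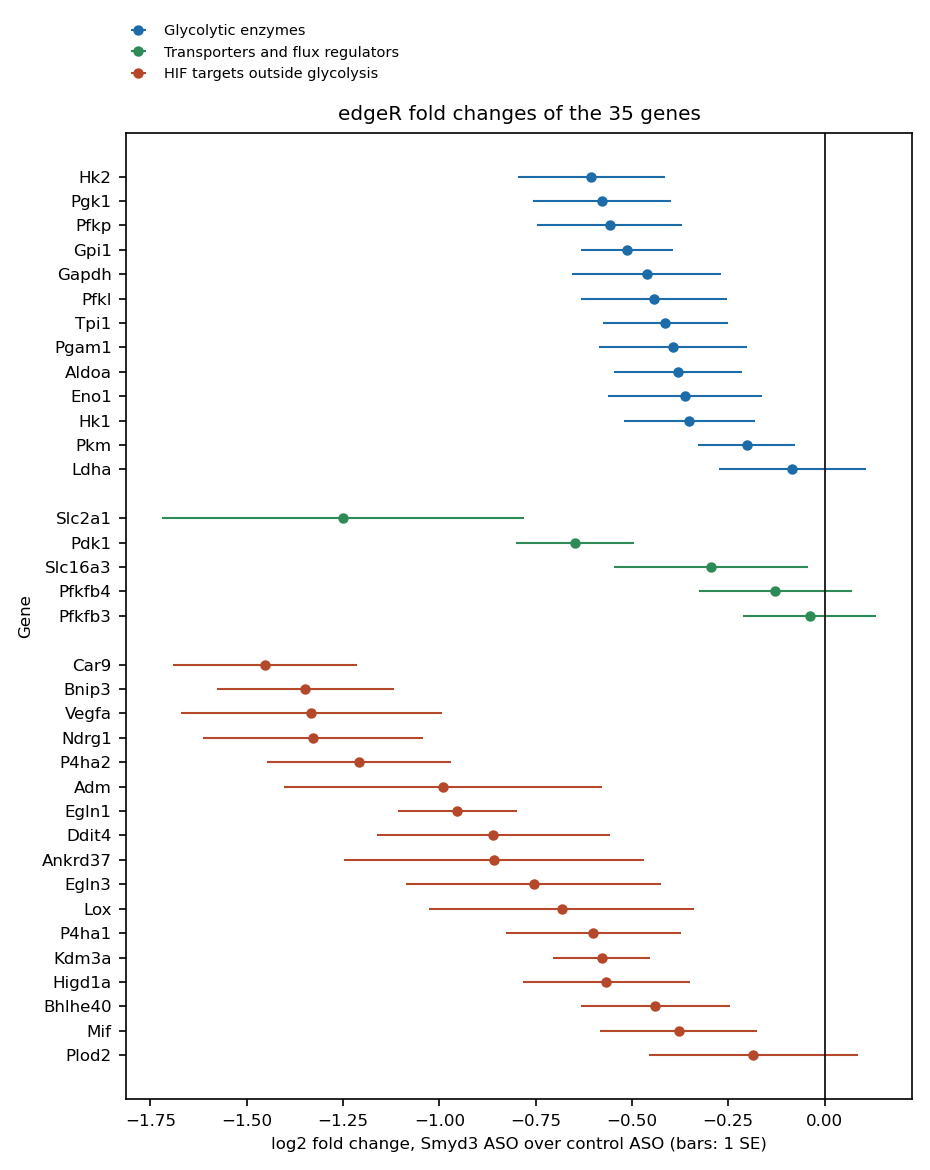
Log2 fold change (x axis) of each of the 35 genes (y axis) in Smyd3 ASO tumours over control ASO tumours, ordered by role, with bars of 1 SE. All 35 points lie below 0, from −0.04 for Pfkfb3 to −1.45 for Car9, and none passed FDR 0.05.

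The scale on which levels are set matters for this count. The summed level of 15 squamous epithelial markers was 25748.8 to 50209.8 CPM in Smyd3 ASO tumours and 36856.4 to 46141.5 CPM in controls, and their mean log2 CPM was 9.63 to 10.13 against 10.17 to 10.34, without overlap. When libraries were scaled so that this mean was equal in all of them, the median of all genes shifted to 0.32, the median of the 35 was −0.27, and 29 of the 35 lay below 0, against 16.1% of all genes. On that scale 8 of the 35 had an unadjusted p under 0.05, all in the lower direction, where 25% of all genes had one in either direction and 1.15% in the lower direction. The medians by role were then −0.55 for the HIF targets, −0.11 for the enzymes and 0.00 for the transporters and regulators. The 6 above 0 on that scale were Ldha, Pkm, Pfkfb3, Pfkfb4, Slc16a3 and Plod2. Markers of skeletal muscle moved with the arm as well. All 18 had log2 fold changes above 0, none with an FDR under 0.05, and they summed to 808.8 to 13698.7 CPM in Smyd3 ASO tumours and 37.14 to 119.0 CPM in controls. Creatine kinase Ckm was at 38.2 to 985 CPM in the Smyd3 ASO tumours, against 0.134 to 1.85 CPM in the controls. No muscle marker was at 0 in all tumours of a group. With the muscle score as a covariate, 14 of the 35 lay below 0 and the median was 0.09, a value extrapolated because the score does not overlap between the arms.

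The HIF targets outside glycolysis showed the widest differences. Car9, a carbonic anhydrase of the cell surface that regulates pH, was at 21.5 and 11.4 CPM in the responders, 16.3 CPM in the unmarked tumour and 23.4 and 13.0 CPM in the non-responders, against 39.6, 53.7 and 47.4 CPM in the controls. Its highest Smyd3 ASO tumour stayed well under its lowest control (log2 fold change −1.45, SE 0.24, FDR 0.0811). Egln1, the prolyl hydroxylase that marks HIF-alpha for destruction and is itself induced by HIF, was at 144 and 123 CPM in the responders, 129 CPM in the unmarked tumour and 141 and 115 CPM in the non-responders, against 225, 325 and 207 CPM in the controls. The 5 Smyd3 ASO values of Egln1 were close together, and its FDR was the lowest of the 35 genes (log2 fold change −0.95, SE 0.15, FDR 0.0758). Bnip3, a mitochondrial protein of mitophagy, was at 228 and 147 CPM in the responders, 191 CPM in the unmarked tumour and 226 and 183 CPM in the non-responders, against 395, 715 and 378 CPM in the controls. Control 2 stood far above the other controls, yet the arms were apart without it too (log2 fold change −1.35, SE 0.23, FDR 0.0865, and −0.97 without control 2). RSEM gave Bnip3 values that are not whole, so some of its reads were shared with other genes.

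Vegfa, the growth factor that draws in blood vessels, was at 465 and 225 CPM in the responders, 468 CPM in the unmarked tumour and 530 and 384 CPM in the non-responders, against 705, 1668 and 757 CPM in the controls (log2 fold change −1.33, SE 0.34, FDR 0.133). Ndrg1, a stress-induced cytoplasmic protein, was at 483 and 238 CPM in the responders, 317 CPM in the unmarked tumour and 455 and 306 CPM in the non-responders, against 739, 1307 and 663 CPM in the controls (log2 fold change −1.33, SE 0.29, FDR 0.0987). In both genes control 2 was the highest tumour and responder 3 the lowest, and the arms did not overlap. Markers of endothelial cells, which answer to Vegfa, had a median of −0.26 with 9 of 10 below 0, but 0.03 without control 2 and 0.09 with epithelial scaling. Kdm3a, a histone H3K9 demethylase, was at 131 and 95.4 CPM in the responders, 119 CPM in the unmarked tumour and 118 and 130 CPM in the non-responders, against 192, 185 and 154 CPM in the controls. Here control 2 was not the highest control, and the arms were still apart (log2 fold change −0.58, SE 0.13, FDR 0.0999). Egln3, a second HIF prolyl hydroxylase, averaged 190 ± 84.4 CPM in Smyd3 ASO tumours and 321 ± 77.5 CPM in controls (SD, n = 5 and n = 3), with overlap through non-responder 1 at 324 CPM (log2 fold change −0.76, FDR 0.32).

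Collagen-modifying genes are a branch of the HIF response, with 4 among the 35. P4ha2, a subunit of collagen prolyl 4-hydroxylase, was at 104 and 68.1 CPM in the responders, 108 CPM in the unmarked tumour and 82.1 and 81.5 CPM in the non-responders, against 156, 298 and 160 CPM in the controls (log2 fold change −1.21, SE 0.24, FDR 0.0939). Its paralogue P4ha1 averaged 108 ± 19.6 CPM in Smyd3 ASO tumours and 163 ± 59.0 CPM in controls (log2 fold change −0.60, FDR 0.263). Lox, which cross-links collagen, averaged 113 ± 31.7 CPM against 182 ± 98.9 CPM in controls, where control 2 held 291 CPM (log2 fold change −0.68, FDR 0.382, and −0.15 without control 2). Plod2, a lysyl hydroxylase, averaged 44.4 ± 5.52 CPM against 50.5 ± 24.1 CPM in controls (FDR 0.794), and its fold change was above 0 without control 2. Fibroblast markers summed to 5098.5 to 6598.7 CPM in Smyd3 ASO tumours and 7761.5 to 13577.9 CPM in controls, the highest being control 2. Of these 11 markers 7 lay below 0 and 4 above, and 6 had an unadjusted p under 0.05, all lower (7% of all genes). Their median was −0.725, or −0.397 without control 2 and −0.352 with epithelial scaling. Their mean log2 CPM overlapped between the arms, at 6.77 to 7.62 against 7.14 to 8.04. Their part in the collagen group was not tested. All 8 other collagen-modifying enzymes of a separate list lay below 0, with a median of −0.56. An unadjusted p under 0.05 was reached by 6 of them, in the lower direction (7% of all genes). Without control 2 all 8 stayed below 0 (median −0.28), and 6 of 8 did with epithelial scaling (median −0.21). Among them Loxl2, another lysyl oxidase, averaged 60.9 ± 10.8 CPM in Smyd3 ASO tumours and 154 ± 43.5 CPM in controls (log2 fold change −1.34, SE 0.20, FDR 0.0656). Plod1, Loxl1 and P4ha3 had log2 fold changes of −0.52, −0.60 and −0.72.

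The remaining 6 HIF targets did not separate the arms. Ddit4, an inhibitor of mTORC1 signalling, averaged 111 ± 25.6 CPM in Smyd3 ASO tumours and 202 ± 104 CPM in controls (log2 fold change −0.86, FDR 0.233). Adm, the vasodilator peptide adrenomedullin, averaged 4.22 ± 1.73 CPM against 8.4 ± 4.5 CPM in controls (log2 fold change −0.99, FDR 0.296), and Ankrd37, an ankyrin repeat protein, 8.68 ± 4.45 CPM against 15.7 ± 4.68 CPM (−0.86, FDR 0.336). In all 3 genes the highest control was control 2, without which the log2 fold changes of Ddit4, Adm and Ankrd37 were −0.34, −0.46 and −0.67. Higd1a, a small mitochondrial protein, had a log2 fold change of −0.57 (FDR 0.266), Bhlhe40, a repressor that also acts on the circadian clock, −0.44 (FDR 0.321), and the cytokine Mif −0.38 (FDR 0.413).

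**Figure D2:**
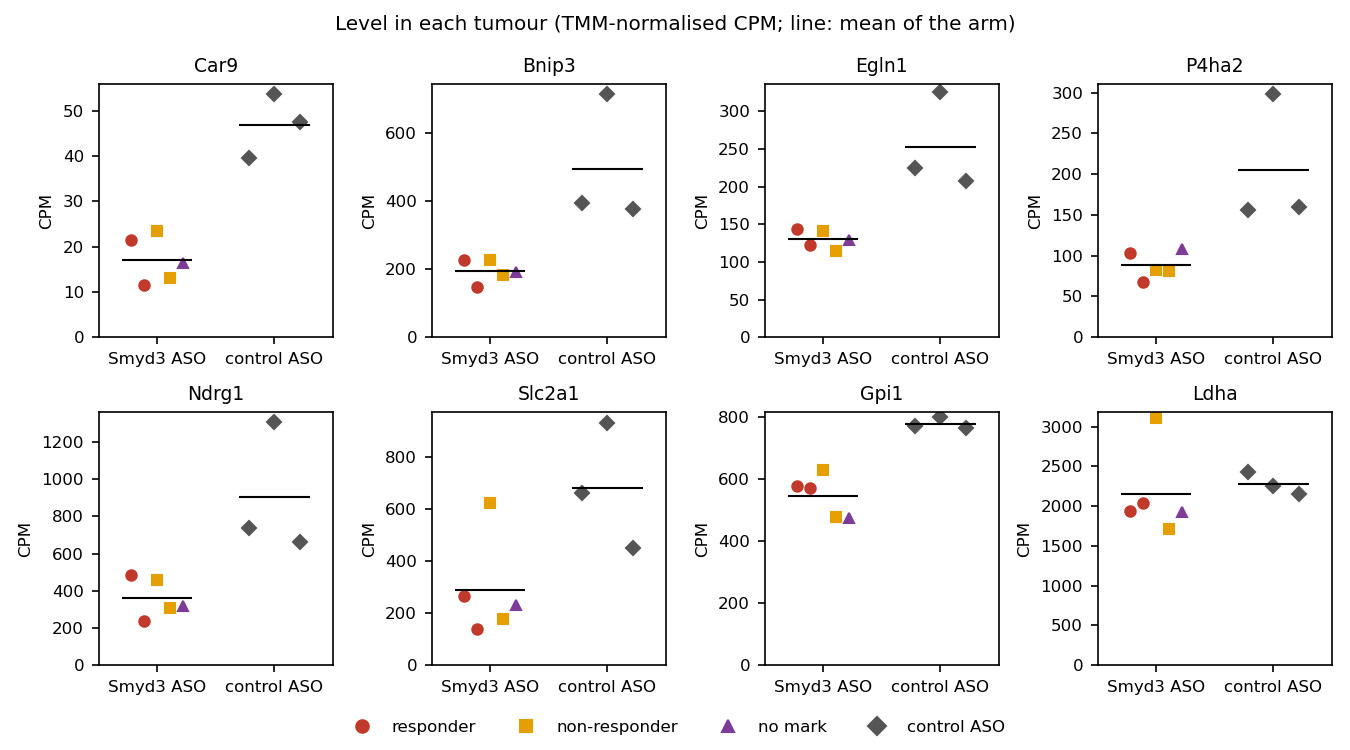
TMM-normalised CPM (y axes, linear from 0) of 8 genes in each of 5 Smyd3 ASO tumours and 3 control ASO tumours, marked by response, with a line at the mean of each arm. In Car9, Bnip3, Egln1, P4ha2, Ndrg1 and Gpi1 the arms do not overlap, while in Slc2a1 and Ldha non-responder 1 lies among or above the controls.

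Along the glycolytic pathway the differences were smaller and more even. Hexokinase traps glucose in the cell, and Hk2, its inducible form, was at 153 and 137 CPM in the responders, 179 CPM in the unmarked tumour and 161 and 128 CPM in the non-responders, against 224, 304 and 164 CPM in the controls (log2 fold change −0.61, SE 0.19, FDR 0.196). Control 3 lay inside the Smyd3 ASO range. Gpi1, which turns glucose 6-phosphate into fructose 6-phosphate, was at 578 and 572 CPM in the responders, 473 CPM in the unmarked tumour and 628 and 477 CPM in the non-responders, against 772, 799 and 765 CPM in the controls. The 3 controls lay within a narrow range and all exceeded every Smyd3 ASO tumour (log2 fold change −0.51, SE 0.12, FDR 0.106). Gpi1 is also, like Tpi1, an enzyme whose promoter window holds neither core. Pfkp, the platelet form of phosphofructokinase, was at 225 and 141 CPM in the responders, 167 CPM in the unmarked tumour and 218 and 154 CPM in the non-responders, against 243, 325 and 231 CPM in the controls (log2 fold change −0.56, SE 0.19, FDR 0.216). Pgk1, the first ATP-forming step, was at 1185 and 962 CPM in the responders, 1107 CPM in the unmarked tumour and 1489 and 896 CPM in the non-responders, against 1600, 1982 and 1470 CPM in the controls. Only non-responder 1 reached into the control range of Pgk1 (log2 fold change −0.58, SE 0.18, FDR 0.191).

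The other 9 enzymes had log2 fold changes from −0.46 in Gapdh to −0.08 in Ldha, with FDR from 0.273 in Tpi1 to 0.873 in Ldha. Gapdh averaged 3592 ± 558 CPM in Smyd3 ASO tumours and 4948 ± 1384 CPM in controls, and Aldoa 1826 ± 316 CPM against 2375 ± 341 CPM. Ldha, which makes lactate from pyruvate, was at 1941 and 2039 CPM in the responders, 1925 CPM in the unmarked tumour and 3112 and 1717 CPM in the non-responders, against 2427, 2248 and 2149 CPM in the controls. Of the Smyd3 ASO tumours 4 lay below every control and non-responder 1 lay above every control. Per kilobase of exon, Gapdh was the most abundant of the 35 in both arms, at a mean of 869.0 CPM per kb in Smyd3 ASO tumours and 1197.3 CPM per kb in controls, and Adm the least, at 2.61 against 5.19 CPM per kb. RSEM values of 11 of the 35 genes, among them Gpi1, Gapdh, Pgk1, Pgam1, Eno1, Pkm, Ldha and Mif, were not whole in 1 or more libraries, so some of their reads were shared with other genes and their levels are less certain.

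Transporters and flux regulators were less uniform. Slc2a1, the glucose transporter GLUT1, was at 265 and 138 CPM in the responders, 232 CPM in the unmarked tumour and 626 and 176 CPM in the non-responders, against 664, 935 and 452 CPM in the controls. Non-responder 1 lay among the controls and the other 4 below all of them (log2 fold change −1.25, SE 0.47, FDR 0.264). Without non-responder 1 the log2 fold change of Slc2a1 was −1.75 and it passed (FDR 0.0374). Pdk1, the kinase that shuts pyruvate out of the mitochondrion, was at 120 and 84.9 CPM in the responders, 98.9 CPM in the unmarked tumour and 130 and 98.1 CPM in the non-responders, against 184, 174 and 142 CPM in the controls, without overlap (log2 fold change −0.65, SE 0.15, FDR 0.112). Slc16a3, the lactate exporter MCT4, averaged 58.8 ± 19.0 CPM against 72.1 ± 6.60 CPM in controls (log2 fold change −0.29, FDR 0.624). Pfkfb3 and Pfkfb4, which set the level of the phosphofructokinase activator fructose 2,6-bisphosphate, were nearly level between the arms, with log2 fold changes of −0.04 (SE 0.17) and −0.13 (SE 0.20). The sign of Pfkfb3 turned without control 2 and that of Pfkfb4 without control 1.

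**Figure D3:**
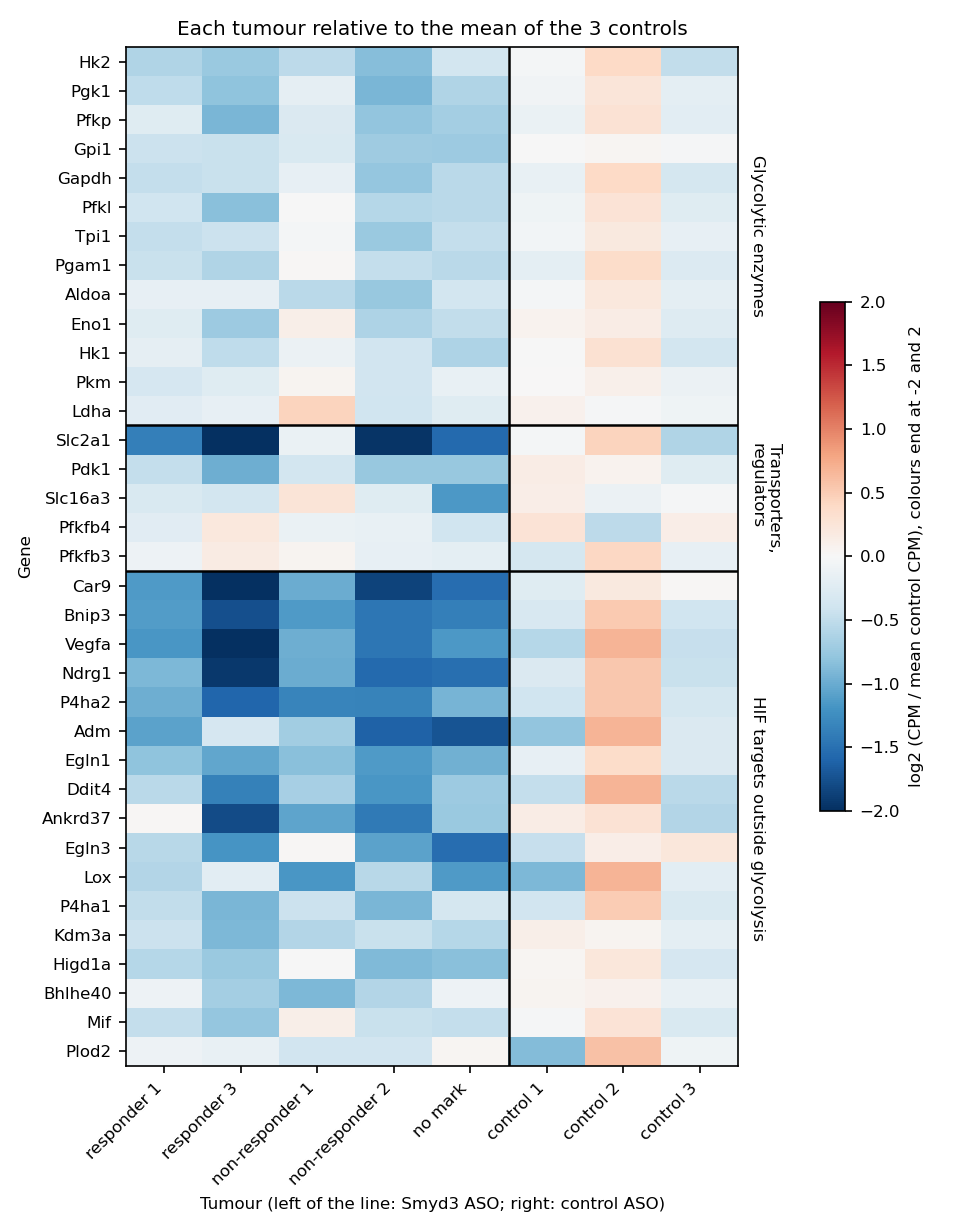
Level of each of the 35 genes (rows, by role) in each of the 8 tumours (columns), as log2 of CPM over the mean CPM of the 3 controls, with colours ending at −2 and 2. Control 2 is the highest of the 8 tumours in 29 genes (16.4% of all genes). Among the Smyd3 ASO tumours non-responder 1 is the highest in 18, which was not counted over all genes.

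The tumours of an arm were not alike. Control 2 was the highest of all 8 tumours in 29 of the 35 genes, where it was highest in 16.4% of all genes. Control 3 was the lowest control in 24 of the 35, and in 4637 of all 16911 genes. In 15 of the 35, control 2 exceeded 1.5 times the mean of the other controls, which was not counted over all genes. Without control 2, 33 of the 35 stayed below 0 (45.3% of all genes), the median was −0.34, and 9 had an unadjusted p under 0.05, all in the lower direction (5.57% of all genes). In 15 of the 35 the log2 fold change was then closer to 0 by over 1.5 times or changed sign, among them Vegfa at −0.80, Hk2 at −0.34, Gapdh at −0.20 and P4ha1 at −0.25. The share of all genes that did so was not counted. Among the Smyd3 ASO tumours, the number of the 35 genes that lay below all 3 controls was 25 in responder 1 (25.4% of all genes), 29 in responder 3 (29.8%), 29 in the unmarked tumour (24%), 17 in non-responder 1 (29.4%) and 31 in non-responder 2 (24.2%). Non-responder 1 differed by role. It lay below all controls in 12 of 17 HIF targets but in only 4 of 13 enzymes. It was the highest of the 5 Smyd3 ASO tumours in 10 of 13 enzymes, which was not counted over all genes. It also held the highest sum of epithelial markers of all tumours and the highest score of 10 proliferation genes, 7.14 against 6.26 to 6.64 in the other Smyd3 ASO tumours. Smyd3 was highest in non-responder 1 among the 5. Their part in the difference by role was not tested.

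**Figure D4:**
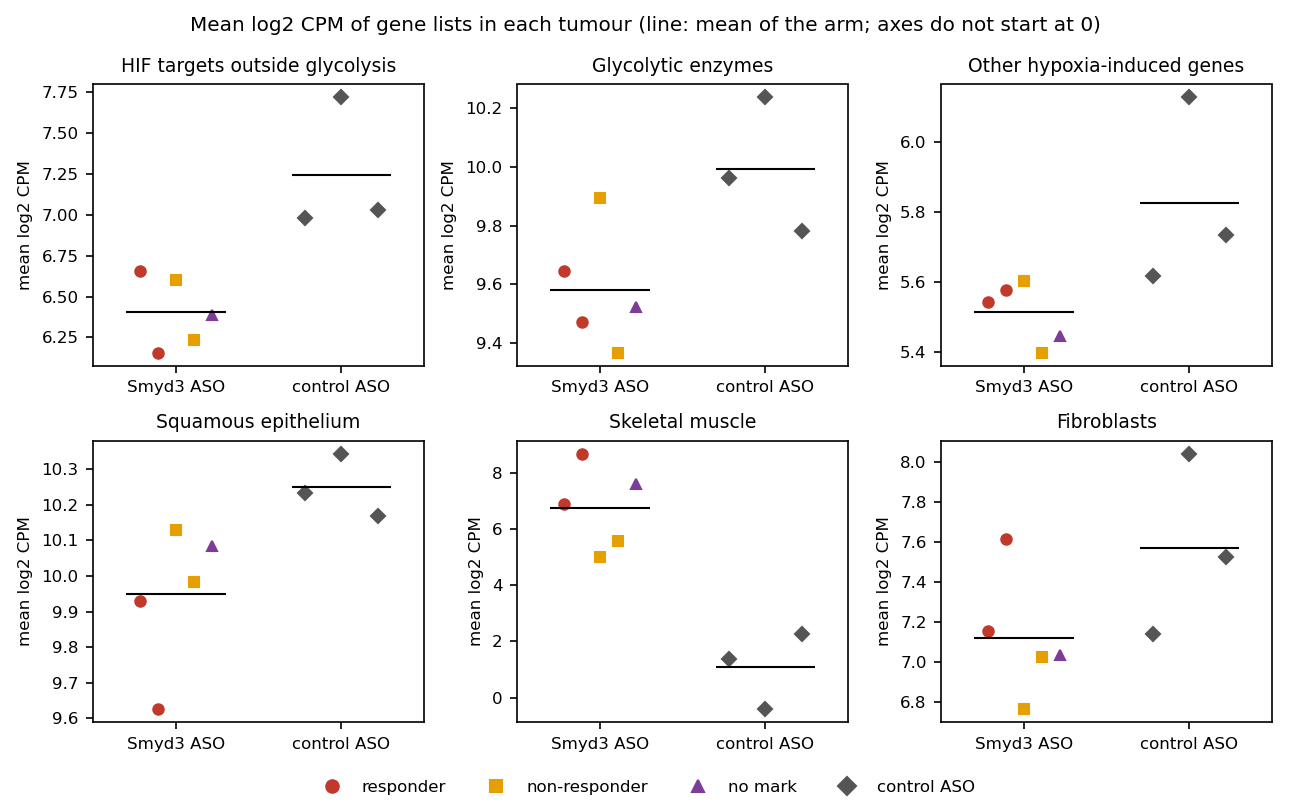
Mean log2 CPM (y axes) of the gene lists named above each panel in 5 Smyd3 ASO and 3 control ASO tumours, marked by response. The score of the HIF targets is 6.16 to 6.66 in Smyd3 ASO tumours and 6.98 to 7.72 in controls, and the skeletal muscle score is 5.0 to 8.68 against −0.40 to 2.27.

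Other isoforms of the same glycolytic steps lay mostly on the other side of 0. Of 22 listed, 17 were tested and 12 of these lay above 0, with a median of 0.49 (0.87 with epithelial scaling), and none passed. Several steps have a muscle isoform, and Pfkm, Pgam2 and Eno3 are the muscle forms of phosphofructokinase, phosphoglycerate mutase and enolase. Pgam2 averaged 29.4 ± 31.9 CPM in Smyd3 ASO tumours and 0.198 ± 0.193 CPM in controls (log2 fold change 7.17, FDR 0.0962). The log2 fold changes of Eno3 and Pfkm were 2.99 (FDR 0.187) and 1.80 (FDR 0.223). Pdk4, a pyruvate dehydrogenase kinase of muscle and fasting, was at 3.81 (FDR 0.0987), opposite in sign to Pdk1. By CPM per kb, Pfkm made up 22.6% and 57.9% of phosphofructokinase in the responders, 33.4% in the unmarked tumour and 11.0% and 17.7% in the non-responders, against 7.24% to 10.1% in the controls. Total phosphofructokinase was 66.6 to 111 CPM per kb in Smyd3 ASO tumours and 79.8 to 110 CPM per kb in controls, so the control range lay inside the Smyd3 ASO range, while Pfkl and Pfkp had log2 fold changes of −0.44 and −0.56. Eno3 made up 2.7% to 37.0% of enolase in Smyd3 ASO tumours and 1.32% to 1.99% in controls. The union exon length takes in every annotated exon and can exceed the length of the main transcript. It was 6675, 13401 and 3340 bases for Pfkl, Pfkp and Pfkm, and 5379 and 1739 bases for Eno1 and Eno3. The size of the shares and totals therefore depends on it. These shares were highest in the tumours with the highest skeletal muscle score, responder 3 and the unmarked tumour, and lowest of the 5 in non-responder 1, which has the lowest muscle score of the arm. The part of muscle tissue in them was not tested.

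**Figure D5:**
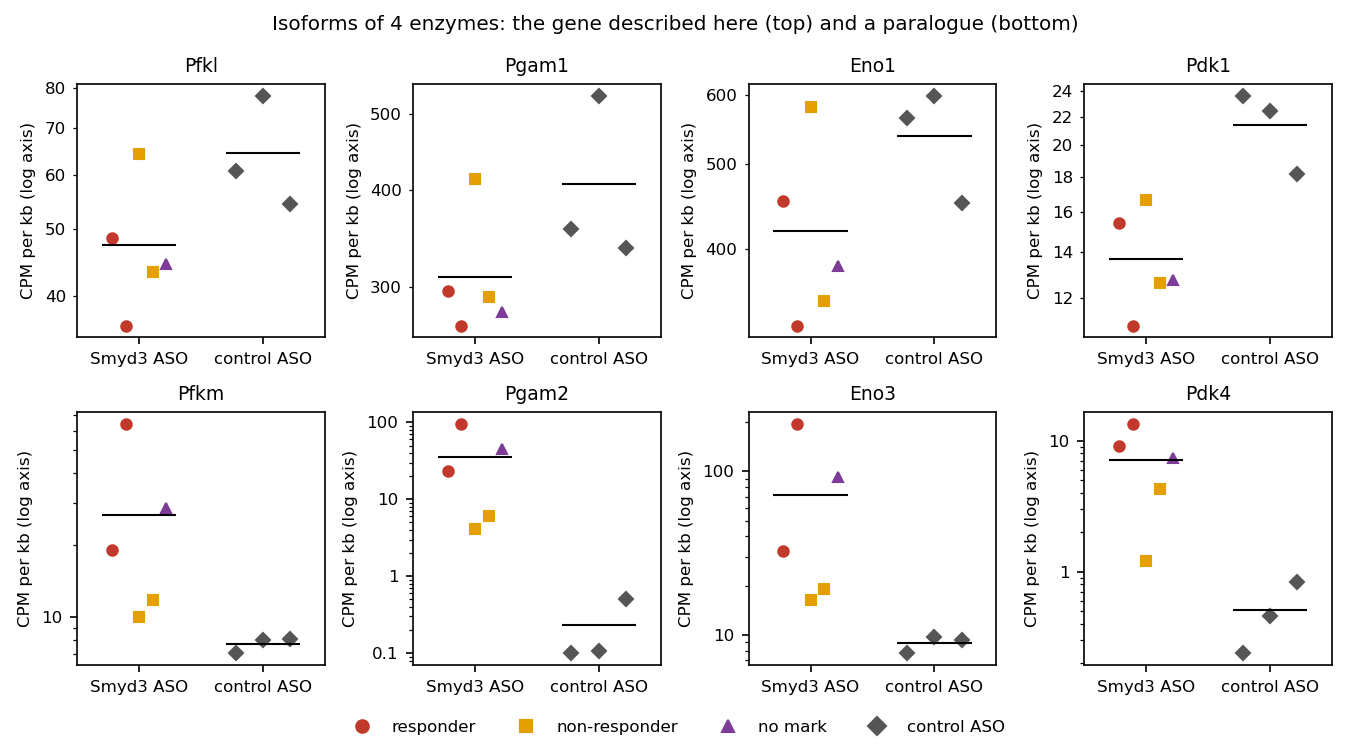
CPM per kb of exon (y axes, log) of Pfkl, Pgam1, Eno1 and Pdk1 (top) and of their paralogues Pfkm, Pgam2, Eno3 and Pdk4 (bottom) in 5 Smyd3 ASO and 3 control ASO tumours, with a line at the mean of each arm. The paralogues lie above every control in all 5 Smyd3 ASO tumours, and in the top row non-responder 1 lies in the control range for Pfkl, Pgam1 and Eno1.

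Lists next to the 35 genes show how far the pattern reached. Of 24 other hypoxia-induced genes 23 were tested, 22 lay below 0 and the median was −0.40. Of the 22, 10 had an unadjusted p under 0.05, where 7% of all genes had one in the lower direction. Without control 2, 18 of the 23 lay below 0 and the median was −0.26, against 0.035 for all genes. With epithelial scaling 12 of the 23 lay below 0 and the median was −0.08, against 0.32 for all genes. Gys1, glycogen synthase, averaged 73.3 ± 5.50 CPM in Smyd3 ASO tumours and 140 ± 25.4 CPM in controls (log2 fold change −0.93, SE 0.12, FDR 0.0656), and Ero1l, an oxidase of the endoplasmic reticulum, 223 ± 55.9 CPM against 546 ± 137 CPM (−1.29, SE 0.22, FDR 0.0865). Kdm4b, a histone demethylase, had a log2 fold change of −0.67 (FDR 0.0999). The exception was Ppp1r3c, a glycogen-targeting phosphatase subunit, at 3.93 (FDR 0.145). The HIF subunits and their regulators did not share the direction as strongly, with 8 of 11 below 0 and a median of −0.13, and with epithelial scaling none was below 0 (median 0.19). Hif1a was at 229 and 349 CPM in the responders, 295 CPM in the unmarked tumour and 568 and 360 CPM in the non-responders, against 276, 341 and 324 CPM in the controls, with non-responder 1 highest of all. Arnt and Crebbp had log2 fold changes of −0.28 and −0.26, and Cited2 and Arnt2 of 0.45 and 2.40, none passing. Of 16 genes of pyruvate entry and the tricarboxylic acid cycle 14 lay above 0, with a median of 0.15 and none with an unadjusted p under 0.05 (Mdh2 0.29, Fh1 0.31, Idh3a 0.24, Ogdh 0.22), and the 7 pentose phosphate genes had a median of 0.01 (G6pdx 0.25, Rpia 0.17, Rpe 0.12, Pgls −0.09). With epithelial scaling all of these lay above 0, with medians of 0.47 and 0.31 for the 2 lists.

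Responders were set against non-responders to ask whether these genes track response within the Smyd3 ASO arm. On simulated counts this comparison recovered 12% of 2-fold and 73% of 4-fold changes, so it would miss most differences of 2-fold. No gene passed (0% called, lowest FDR 0.314 over all genes, 1436 genes with an unadjusted p under 0.05, 225 called by DESeq2, and 21 without responder 1), and 22 of the 35 lay below 0 and 13 above (48.4% of all genes below). The medians were −0.11 for enzymes, −0.15 for transporters and regulators and −0.03 for HIF targets, and with epithelial scaling 7 of the 35 lay below 0 while the median of all genes shifted to 0.30. The epithelial marker mean was 9.63 and 9.93 in the responders against 9.98 and 10.13 in the non-responders. The 2 responders lay below both non-responders in 2 of the 35, Slc16a3 and Mif (18.9% of all genes), and above both in 2, Aldoa and Plod2 (20.3%). The smallest p belonged to Aldoa, the aldolase of most tissues and of muscle, at 2119 and 2129 CPM in the responders and 1634 and 1397 CPM in the non-responders (log2 fold change 0.49, SE 0.19, FDR 0.56). The skeletal muscle score moved with it, at 6.89 and 8.68 in the responders against 5.0 and 5.58 in the non-responders, and its part was not tested. Bhlhe40, at 390 and 261 CPM in the responders and 226 and 278 CPM in the non-responders, and Ankrd37, at 15.9 and 4.57 CPM against 7.6 and 5.88 CPM, had log2 fold changes of 0.37 (SE 0.22, FDR 0.666) and 0.60 (SE 0.57, FDR 0.788). The response groups overlapped in both genes.

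Slc2a1 had the largest difference among these 35 genes, at 265 and 138 CPM in the responders and 626 and 176 CPM in the non-responders (log2 fold change −0.99, SE 0.62, FDR 0.682), but it rested on non-responder 1 and was 0.19 without that tumour. Mif was at 143 and 116 CPM in the responders and 215 and 146 CPM in the non-responders (−0.48, SE 0.26, FDR 0.634), and Slc16a3 at 58.4 and 56.0 CPM against 86.1 and 60.9 CPM (−0.36, SE 0.19, FDR 0.623). Pfkl, the liver form of phosphofructokinase, was at 324 and 242 CPM in the responders and 429 and 289 CPM in the non-responders (−0.34, SE 0.26, FDR 0.734), and Pgam1, phosphoglycerate mutase, at 589 and 531 CPM against 817 and 577 CPM (−0.32, SE 0.27, FDR 0.758). In Slc2a1, Pfkl and Pgam1 responder 1 lay above non-responder 2. In each of these 5 genes non-responder 1 was the highest of the 4 tumours.

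Each response group was also set against the same 3 controls, so the 2 comparisons are not independent. Of all genes, 280 (1.66%) passed in responders, 46 of them lower (0.272%), or 1065 with 7 lower under epithelial scaling, and none of the 35 was among the 280 (lowest FDR 0.0973, Car9). That count of all genes was 0 without control 1, 6 without control 3, 33 without responder 3, 109 without control 2, 169 without non-responder 1 and 185 without non-responder 2. In non-responders no gene passed (0%, lowest FDR 0.0779 over all genes, 1562 with an unadjusted p under 0.05, and 339 called by DESeq2). In each comparison 33 of the 35 lay below 0 (49.6% of all genes in responders and 48.9% in non-responders), or 22 in responders and 29 in non-responders with epithelial scaling. An unadjusted p under 0.05 in the lower direction was reached by 14 of the 35 in responders (6.99% of all genes) and by 12 in non-responders (4.14%). The medians in responders were −0.46 for enzymes, −0.33 for transporters and regulators and −0.69 for HIF targets, and in non-responders −0.34, −0.14 and −0.90. Both responders lay below all controls in 24 of the 35 (17% of all genes), and both non-responders in 16 (12.6%). Car9 had log2 fold changes of −1.51 (SE 0.36) in responders and −1.36 (SE 0.35) in non-responders, and Egln1 of −0.92 (SE 0.22) and −0.98 (SE 0.22). Aldoa had −0.16 (SE 0.17) in responders and −0.65 (SE 0.17) in non-responders, and Slc2a1 −1.76 (SE 0.60) and −0.77 (SE 0.58). Among genes outside the 35, Arnt2, Pgam2, Pdk4 and Eno3 rose in responders (FDR 0.0315, 0.0187, 0.0305 and 0.0464). All 18 skeletal muscle markers rose there too, 16 of them with an FDR under 0.05. None of these passed without control 1.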

How the data were processed

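Tumour RNA was polyA-selected and column-extracted, and libraries came from a stranded TruSeq kit, per the labels' protocols. Tools named in the submitters' processing notes, without settings, are RSEM 1.3.0, STAR 2.7.0f, cutadapt 1.18 and bcl2fastq 2.17, with the build mm10. The authors deposited expected counts, estimated per gene by RSEM and not scaled to depth, of which 2929 to 3179 per library were further than 1e-06 from a whole number. The gene annotation is not given in the sources used here, and all 55450 gene identifiers were found in GENCODE M21, which gave symbols and exon lengths. Expected counts were rounded. Genes with 0.424 CPM (10 reads in the median library) in 2 or more libraries and 15 or more reads in all were kept, which left 16911 genes with 99.93% of the reads and all 35 genes described.

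Libraries were scaled by TMM (factors 0.9638 to 1.0404) and tested with edgeR 4.0.16 in R 4.3.3 (robust quasi-likelihood F test, two-sided, Benjamini-Hochberg FDR over all genes tested, threshold 0.05). Smyd3 ASO against control ASO had treatment as its only term. The response comparisons came from a model of 4 groups over all 8 libraries. CPM values are TMM-scaled, CPM per kb divides by the union exon length, and a list's score is its mean log2 CPM with prior count 2. The alternatives were DESeq2 1.42.0, limma 3.58.1 voom, RLE scaling, no count filter, scaling to the epithelial list, library sizes without muscle and mitochondrial genes, a muscle covariate, each library left out and the numbered libraries with and without a block. The genes, their roles and all lists were chosen with earlier results of these data known, so no list was tested as a set. Values in every tumour are given for the 12 genes with the smallest p between the arms and the 8 with the smallest p between response groups, and log2 fold changes for up to 4 genes from each metabolic list. Ldha, Hif1a, Krt5, Ckm, Ppp1r3c and the values singled out by tumour were named after their values were seen. A result that needs a name withheld for evaluation is not reported here. The steps were tested on simulated counts, with 100 genes changed 2-fold and 100 changed 4-fold. Of the 2-fold changes 62% were recovered between the arms and 12% between response groups, and 32% and 31% in responders and non-responders against controls. Of the 4-fold changes 93%, 73%, 84% and 83% were recovered in the same order. False calls were 11, 5, 12 and 13. A gene that did not pass may therefore still differ.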

Additional observations from a re-analysis of the deposited data

Results flagged for a closer look

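Within the Smyd3 ASO arm, 59 genes were examined for a tumour far from the other 4. The measure was the gap to its nearest neighbour over the whole range on the log2 CPM scale (critical value 0.71). It found 2 genes. Chance flags about 1 gene in 20, so 2 of 59 is no more than chance would give. Both were high in non-responder 1. Pgam1 was at 817.4 CPM in that tumour and at 531 to 589 CPM in the other 4 Smyd3 ASO tumours, and Ldha at 3112.3 CPM against 1717 to 2039 CPM. On linear CPM 4 genes met the same measure, these 2 and also Slc2a1, at 626.2 CPM in non-responder 1 against 138 to 265 CPM in the other 4, and Arnt2, at 10 CPM in responder 3 against 1.93 to 3.89 CPM.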

How the results depend on the processing

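Values for single genes were counted only for the genes chosen by smallest p in the 2 comparisons, and without the muscle covariate. Of these, 298 kept their direction and side of the threshold, 16 newly passed it and 2 reversed. Both reversals were in responders against non-responders. Slc2a1 was 0.193 without non-responder 1 (−1.638 to 0.193 over all libraries left out). Ankrd37 was −0.557 without responder 1 (−0.557 to 1.242). Sign changes of other genes, such as Pfkfb3, Pfkfb4 and Plod2, are outside this count. With the covariate, Ndrg1, Vegfa, Pgk1 and Pfkp also turned above 0 between the arms (0.096, 0.424, 0.091 and 0.222). The other genes chosen for that comparison stayed below 0. Of the counts and medians, 254 stayed close and 57 moved.

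For Smyd3 ASO against control ASO, DESeq2 called 1053 genes (9 of the 35), no count filter gave 52 (3 of the 35), the mean of the 3 Smyd3 ASO groups 96, and leaving out 1 library 0 to 259 (0 to 4 of the 35). Same-numbered tumours of the arms did not deviate together (Pearson r −0.0344, 0.0002 and 0.0764 across genes), and control 1 was closest to Smyd3 ASO tumour 2 (0.137). The main model treated them as unpaired. With 3 tumours per arm these correlations cannot show whether the numbers stand for anything shared. The 6 numbered libraries gave 286 genes (1 of the 35, Car9) with no block and 247 (1, Slc2a1) with the replicate block, where the transporter median was −0.560 and −0.602. With epithelial scaling the medians of enzymes, transporters and HIF targets were −0.107, 0.002 and −0.550, and with the muscle covariate 0.147, 0.275 and −0.136. Leaving out 1 library gave HIF target medians of −1.084 to −0.530.

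For responders against non-responders, DESeq2 called 225 genes, no filter 7 and leaving out 1 library 0 to 21. The enzyme and transporter medians were 0.179 and 0.118 with epithelial scaling, 0.266 and 0.250 with the covariate (HIF targets 0.758), and −0.344 to 0.212 and −0.389 to 0.156 with 1 library left out. For responders against controls, DESeq2 called 1153 genes (8 of the 35), voom 135, no filter 499 (1 of the 35), epithelial scaling 1065 and leaving out 1 library 0 to 287. The 3 medians were 0.034, 0.138 and −0.211 with epithelial scaling, and 0.931, 0.393 and 1.068 with the covariate. For non-responders against controls, DESeq2 called 339 genes (5 of the 35) and no filter 32. The medians with the covariate were 0.448, 0.143 and 0.310, and the enzyme median was −0.707 to −0.117 with 1 library left out. RLE scaling and library sizes without muscle and mitochondrial genes moved none of these. Values with the covariate are extrapolated. A lone tumour left in a group was taken to vary like the others. Causes of these shifts were not tested. At these depths Adm and Ankrd37 rest on the fewest reads.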

Other observations

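Other cell types and states measured in the same tumours are given as levels beside the 35 genes. Summed T cell markers were at 42.43 to 221.1 CPM in Smyd3 ASO tumours and 26.52 to 58.32 CPM in controls, highest in responder 3. Summed adipocyte markers were at 30.55 to 277.3 CPM against 16.96 to 42.63 CPM, also highest in responder 3. Among the Smyd3 ASO tumours responder 3 had the lowest level of 15 of the 35 genes, which was not counted over all genes. Macrophage markers overlapped, at 623.7 to 1445.3 CPM against 643.5 to 1177.3 CPM, as did neutrophil markers, at 111.5 to 261.7 CPM against 87.66 to 249.7 CPM, and erythrocyte markers, at 18.06 to 85.74 CPM against 18.46 to 116.3 CPM. Immediate early genes, which move with the handling of tissue, were at a summed 488.0 to 903.5 CPM in Smyd3 ASO tumours and 561.6 to 798.5 CPM in controls. The part of these levels in the differences of the 35 genes was not tested.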
